A study of Mus musculus with 6 samples.

Results

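The 10 genes described here build the growing axon of an immature neuron: Gap43, Gng8, Stmn2, Stmn3, Stmn4, Dcx, Tubb3, Dpysl3, Dpysl5 and Crmp1. They were chosen by name, as every probe set whose only platform gene symbol is 1 of these. The rule found all 10 genes, with 18 probe sets, among 16399 genes and 38694 probe sets tested. The tissue was the olfactory epithelium of CD1 mice of postnatal days 21, 22 and 24, dissociated, stained with a fluorescent antibody to the adhesion protein ICAM1 and sorted by flow cytometry. Every litter was split into ICAM1-positive and ICAM1-negative cells with 1 Affymetrix mouse array for each, so 3 litters gave 3 ICAM1-positive and 3 ICAM1-negative arrays. The labels name individual litters as the source and no transgene or treatment. Each litter had its own age, so litter and age cannot be told apart.

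A growth cone is the moving tip of a growing axon. It steers by its membrane and actin cortex and advances as microtubules grow, shrink and become stable behind it. The olfactory epithelium makes sensory neurons throughout life from basal stem cells, so immature neurons with growing axons are always present beside mature neurons. Horizontal basal cells, the quiescent stem cells of this tissue, carry ICAM1, as do endothelial cells and some immune cells.

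Values are scaled linear intensities, whose median per array lay between 87.7 and 101.7 in the ICAM1-positive sorts and between 90.8 and 102.4 in the ICAM1-negative sorts. Across probe sets, log2 intensities of 2 arrays correlated at 0.934 to 0.944 within a sort and at 0.762 to 0.794 between sorts. The samples' description lines contradict their titles, naming the opposite population. Icam1, the antigen of the sort, read 7246.5, 6817.2 and 6857.1 in the sorts titled ICAM1-positive and 13, 16.1 and 33.2 in those titled ICAM1-negative, so the titles were used. The levels of probe sets of different genes are not compared below, because an intensity depends on the probes. Intensities under the array median were not taken as a reliable level. Where raising them to that median ends a call or moves a named difference by more than 1.5-fold, that is also stated. This covers all member probe sets and the probe set that stands for each other gene. Further probe sets of other genes were not checked in this way.

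Every member gene was lower in ICAM1-positive than in ICAM1-negative cells. All 18 member probe sets passed the filter on dim values and all 18 were called lower by limma (Benjamini-Hochberg adjusted p under 0.05), against a background of 18.0% of all probe sets tested. On all 18 probe sets every ICAM1-positive array read below every ICAM1-negative array, a pattern held by 26.5% of probe sets tested. With 1 probe set a gene, 10 of 10 members were lower and 0 higher, where 20.8% of 16399 genes were lower and 20.6% higher. The median log2 difference of the members was -4.09, against -0.06 over all genes. The difference of log2 intensity, ICAM1-positive minus ICAM1-negative, ran from -4.31 for Stmn4 to -1.86 for Dpysl3, and the adjusted p from 0.000176 to 0.00136. That fit does not pair the sorts of a litter. With litter as a block, the limma adjusted p of the members ran from 0.00406 to 0.00673. Arrays of bulk sorts cannot tell fewer cells of a type from less RNA per cell.

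**Figure D1:**
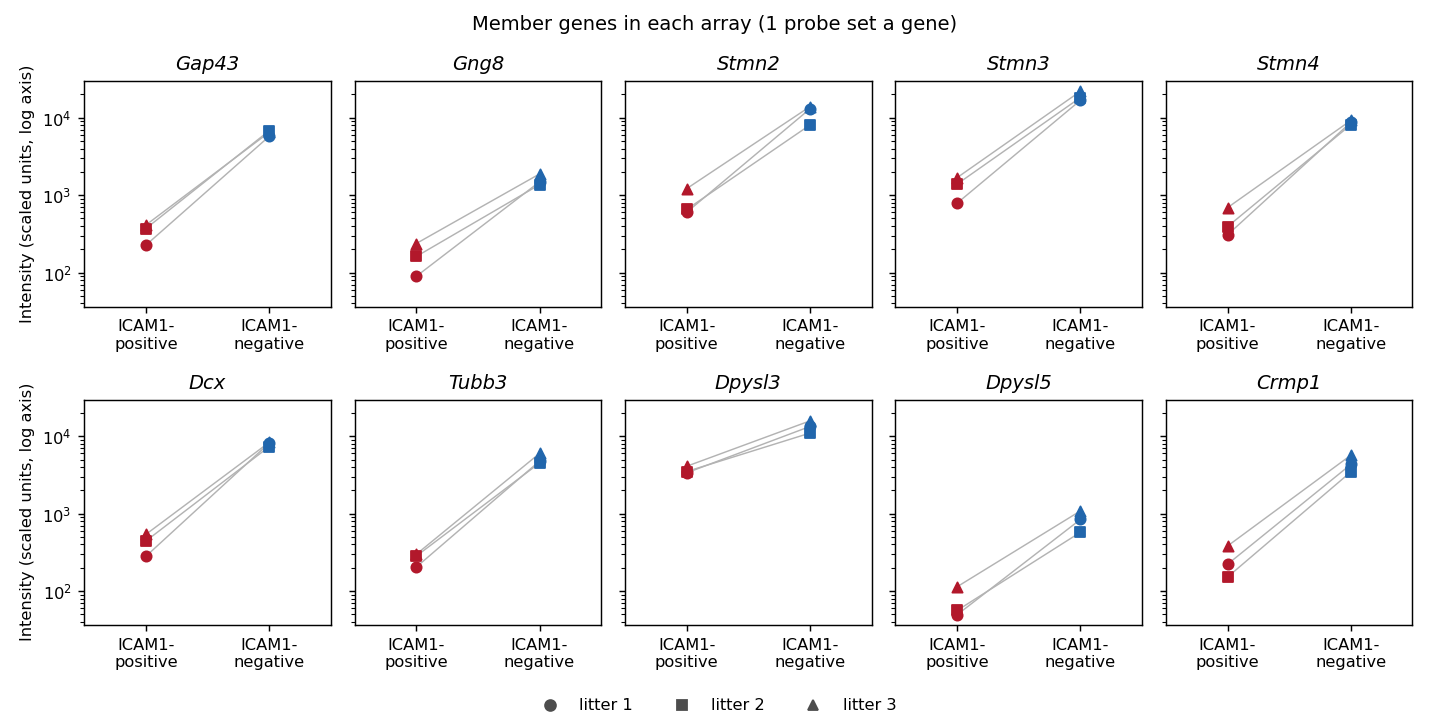
Intensity of each member gene (1 probe set a gene, log axis in scaled units) in the 3 ICAM1-positive and 3 ICAM1-negative sorts, with marker shapes for litters 1 to 3 and grey lines joining the sorts of a litter. In all 10 panels the ICAM1-positive points lie below the ICAM1-negative points, with the smallest gap for Dpysl3.

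Gap43 encodes growth-associated protein 43, a membrane protein of the growth cone that is the usual marker of immature olfactory neurons. Its only probe set (1423537_at) read 226.1, 370.4 and 411.3 in the ICAM1-positive sorts of litters 1 to 3, against 5743.1, 6796.6 and 6483.5 in the ICAM1-negative sorts. The groups lay far apart. Means were 336 ± 97.3 in ICAM1-positive and 6341 ± 541 in ICAM1-negative cells (SD, n = 3 each). The log2 difference was -4.28 ± 0.27 (standard error of the fit, limma adjusted p = 0.000239), which is 19.4-fold lower.

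Gng8 encodes a gamma subunit of heterotrimeric G proteins known from immature neurons of the olfactory and vomeronasal epithelium. Its probe set (1457755_at) read 89.5, 161.5 and 237.5 in ICAM1-positive sorts and 1486.6, 1368.3 and 1880.7 in ICAM1-negative sorts. The ICAM1-positive array of litter 1 fell below its array median, so the fold there is uncertain. The log2 difference was -3.37 ± 0.38 (limma adjusted p = 0.00136), or 10.4-fold lower, and -3.31 with that array raised to its median.

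Other gamma subunits differed in both directions. Gng13, which serves odour signalling in mature olfactory neurons, read 209.4, 587.1 and 441.8 in ICAM1-positive sorts and 4707.5, 9411.3 and 6099.9 in ICAM1-negative sorts, a log2 difference of -4.09 ± 0.46 (limma adjusted p = 0.00130). Gng12, a broadly expressed subunit, went the other way, with 2246.9, 2040.4 and 2118.1 in ICAM1-positive and 325.6, 302.7 and 300.5 in ICAM1-negative sorts (log2 2.79 ± 0.16, adjusted p = 0.000182). The log2 difference of Gng8 minus that of Gng12 was -6.16 (SD over litters 0.59), and minus that of Gng13 it was 0.72 (SD 0.25). An exact two-sided permutation test over the 6 arrays, which ignores the pairing by litter, gave p = 0.1 for the first pair and p = 0.3 for the second. A p of 0.1 is the smallest this unpaired test can give. All exact permutation p below are of this kind, and a test within litters was not run.

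Stathmins bind free tubulin and promote the shrinking of microtubules. Stmn2, Stmn3 and Stmn4 are the neuronal members, anchored to membranes, and Stmn2 is concentrated in growth cones. Stmn2 (1423280_at) read 601.3, 655.2 and 1214.5 in ICAM1-positive sorts and 13047.4, 8065.6 and 13930.9 in ICAM1-negative sorts, with a log2 difference of -3.86 ± 0.36 (limma adjusted p = 0.000702). Litter 3 was the highest and litter 2 the lowest of the ICAM1-negative arrays, yet even that lowest array was above all ICAM1-positive arrays. The other Stmn2 probe set (1423281_at) read 146.2, 102.9 and 139 in ICAM1-positive and 2376.7, 2523.9 and 3380.1 in ICAM1-negative sorts, a log2 difference of -4.41 ± 0.24.

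Stmn3 (1435113_x_at) read 788.3, 1390.1 and 1683.5 in ICAM1-positive sorts, against 16799.5, 18242.9 and 21963.9 in ICAM1-negative sorts. Arithmetic means were 1287 ± 456 and 19002 ± 2665 (SD, n = 3 each). The fit on the log2 scale put the groups 15.4-fold apart, a log2 difference of -3.94 ± 0.32 (limma adjusted p = 0.000454). The _x_ in that name marks probes that can also bind other transcripts. Its other probe set (1460181_at) read 110.2, 185.2 and 265.8 in ICAM1-positive and 4004.7, 4512.4 and 4938.9 in ICAM1-negative sorts, 25.4-fold lower by the fit. Stmn4 (1418105_at) read 307.6, 392.3 and 689.9 in ICAM1-positive and 8729.3, 8127.7 and 9232 in ICAM1-negative sorts. Its ICAM1-positive level was 5.03% of the ICAM1-negative level (log2 -4.31 ± 0.32, adjusted p = 0.000359).

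The widely expressed relative Stmn1 differed less, by the probe set that stands for it. That probe set (1415849_s_at) read 13528.4, 15150.4 and 15971.2 in ICAM1-positive sorts and 24177.3, 18195.1 and 26565 in ICAM1-negative sorts, with no overlap but no call (log2 -0.61 ± 0.21, limma adjusted p = 0.0696). The log2 differences of Stmn2, Stmn3 and Stmn4 minus that of Stmn1 were -3.25, -3.33 and -3.70, with SDs over litters of 0.42, 0.32 and 0.60. Each pair gave an exact permutation p of 0.1, the smallest that unpaired test can give. A dimmer Stmn1 probe set (1448113_at) went further, with 175.4, 309.6 and 132.1 in ICAM1-positive and 1289.9, 3593.6 and 1399.8 in ICAM1-negative sorts (log2 -3.27 ± 0.51, adjusted p = 0.00445). The gap between Stmn1 and the neuronal stathmins therefore depends on the Stmn1 probe set read.

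Doublecortin, encoded by Dcx, binds along microtubules and stabilises them in migrating and axon-forming young neurons. The brightest of its 4 probe sets (1418139_at) read 281.2, 443 and 539.9 in ICAM1-positive sorts and 8139.4, 7337.2 and 8324.4 in ICAM1-negative sorts, 19.5-fold lower (log2 -4.28 ± 0.28, limma adjusted p = 0.000250). A second (1418141_at) read 25.4, 46.6 and 187.7 in ICAM1-positive and 1176.9, 1205.8 and 2065.3 in ICAM1-negative sorts, with a log2 difference of -4.56 ± 0.75. Only its litter 3 lay above the array median among ICAM1-positive arrays, its difference was -3.59 with low values raised, and its adjusted p was 0.0673 without litter 2. The remaining 2 were dim: 1418140_at read 24.3, 28 and 52.5 in ICAM1-positive and 125, 95.5 and 153 in ICAM1-negative sorts, and 1448974_at stayed below the median on all 6 arrays. Their calls (log2 -1.89 and -2.05) were lost with low values raised (adjusted p = 0.205 and 0.998) and when 1 litter was left out, without litter 1 (0.0883) or 2 (0.0591) for the first and without litter 3 (0.0746) for the second.

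Doublecortin-like kinases share the microtubule-binding domains of doublecortin and add a kinase. All 3 measured were lower in ICAM1-positive cells by the probe set that stands for each. Dclk1 read 175.2, 311.7 and 265.6 in ICAM1-positive and 2405.9, 2625 and 2479.2 in ICAM1-negative sorts (log2 -3.36 ± 0.25, limma adjusted p = 0.000370). Of 8 Dclk1 probe sets, 7 were called lower. Dclk3 read 63.3, 91.7 and 142.4 in ICAM1-positive and 1813.5, 1741.8 and 2091.5 in ICAM1-negative sorts (-4.32 ± 0.32, adjusted p = 0.000352). Dclk2, with a log2 difference of -2.99 ± 0.31, was near background in ICAM1-positive sorts and differed by -1.89 with low values raised. Another Dclk2 probe set (1458488_at) was not called, with 124.6, 47.5 and 65 in ICAM1-positive and 53.3, 22.9 and 34.5 in ICAM1-negative sorts (log2 1.06, limma adjusted p = 0.135). The log2 difference of Dcx minus that of Dclk1 was -0.93 (SD over litters 0.18, exact permutation p = 0.1).

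Tubb3 encodes the beta-tubulin of neurons, a common marker of newborn neurons. It read 204.1, 283.2 and 298.9 in ICAM1-positive sorts and 4776.1, 4519.3 and 6005.9 in ICAM1-negative sorts (1415978_at). The groups were 19.6-fold apart with little spread in the ICAM1-positive sorts, and the log2 difference was -4.29 ± 0.23 (limma adjusted p = 0.000176).

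Other tubulins mostly differed less. Of 14 alpha- and beta-tubulins listed, 11 were tested, 4 were lower and 0 higher by limma (also 0 higher at an unadjusted p under 0.05), and their median log2 difference was -0.43. Tubb2b, another beta-tubulin rich in young neurons, had the largest difference, with 905.6, 3157.2 and 1641.2 in ICAM1-positive and 8797.7, 16379.6 and 11753.8 in ICAM1-negative sorts (log2 -2.83 ± 0.50, limma adjusted p = 0.00712). Tubb5, found in most cell types, read 7487.7, 6579.6 and 8317 in ICAM1-positive and 15664.5, 13518.6 and 17633.1 in ICAM1-negative sorts (-1.06 ± 0.19, adjusted p = 0.00786). Another Tubb5 probe set (1455719_at) was not called, with 1251.1, 1222.6 and 1346.8 in ICAM1-positive and 983.8, 980.7 and 1203.5 in ICAM1-negative sorts (0.28, adjusted p = 0.276), so the comparison of Tubb3 with Tubb5 rests on the probe set read. Tubb4b differed by -0.92 ± 0.21 (adjusted p = 0.0182), but only 1 of its 5 probe sets was called, and they ran from -0.92 to 0.35. Tuba4a differed by -0.54 ± 0.16 (adjusted p = 0.0483, and 0.0546 with the replicate block). The list's count fell to 1 lower without litter 1 and to 0 without litter 3. Neither Tuba1a (log2 -0.32, adjusted p = 0.223) nor Tubb2a (0.28, adjusted p = 0.579) passed the threshold. The log2 difference of Tubb3 minus those of Tubb5, Tuba1a and Tubb2a was -3.23, -3.97 and -4.57, with SDs over litters of 0.26, 0.05 and 0.38 (exact permutation p = 0.1 for each).

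**Figure D2:**
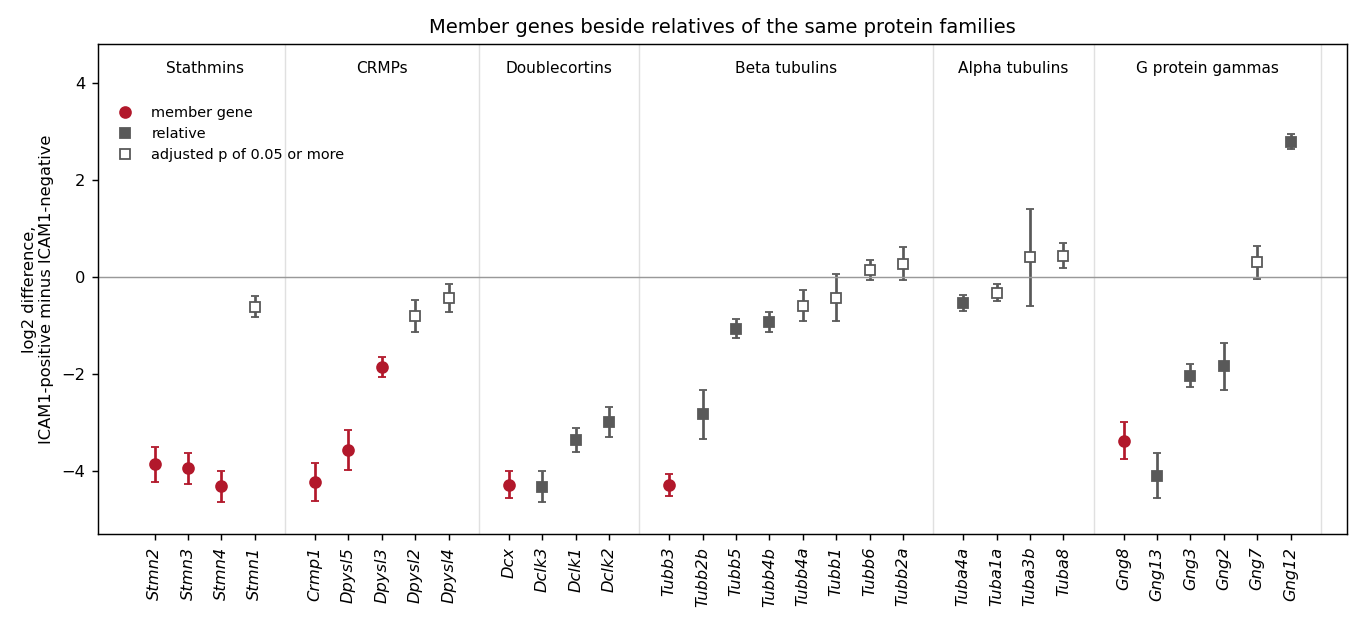
Log2 difference (ICAM1-positive minus ICAM1-negative, bars are the standard error of the fit) of member genes (red circles) and relatives of the same families (grey squares, open where the adjusted p was 0.05 or more), 1 probe set a gene. Members lie between -4.31 and -1.86, while relatives run from Dclk3 at -4.32 up to Gng12 at 2.79.

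Collapsin response mediator proteins pass guidance signals to the cytoskeleton and bind tubulin. Crmp1 (1448289_at) read 222.1, 151.8 and 382.2 in ICAM1-positive sorts and 4321.5, 3463.9 and 5688.5 in ICAM1-negative sorts, 18.8-fold lower (log2 -4.23 ± 0.39, limma adjusted p = 0.000652). Litter 2 was its lowest array in both sorts. Dpysl5, which encodes CRMP5, read 49.5, 56.2 and 113.8 in ICAM1-positive and 841.8, 575.4 and 1084.9 in ICAM1-negative sorts by its brighter probe set (1449290_at). With 2 of its ICAM1-positive arrays below the median, the fitted log2 difference of -3.57 ± 0.41 (adjusted p = 0.00135) was -3.01 with low values raised, at least 8.03-fold lower. Its dim probe set (1441246_s_at) read 3.8, 1.3 and 16.3 in ICAM1-positive and 97.5, 81.5 and 117.4 in ICAM1-negative sorts. That call (log2 -4.50, adjusted p = 0.0110) was lost with low values raised (0.641) and without litter 1 (0.1003).

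Dpysl3, which encodes CRMP4, had the smallest difference of the 10 genes with 1 probe set a gene, and kept a clear signal in ICAM1-positive cells. Its brightest probe set (1454613_at) read 3369.8, 3503.4 and 4095.7 in ICAM1-positive and 13372.3, 10986.3 and 15797.6 in ICAM1-negative sorts. The ICAM1-positive level was 27.5% of the ICAM1-negative level (log2 -1.86 ± 0.21, limma adjusted p = 0.00124). The other 2 probe sets lay close by, at -2.49 ± 0.20 (1415877_at) and -2.44 ± 0.35 (1438789_s_at). In the first, intensities were 1240.9, 1701.2 and 1730 in ICAM1-positive and 8922.8, 7958.5 and 9167.5 in ICAM1-negative sorts. The log2 differences of Crmp1 and Dpysl5 minus that of Dpysl3 were -2.37 and -1.70 (SDs over litters 0.46 and 0.40, exact permutation p = 0.1 for each).

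Dpysl2, the broadly expressed CRMP2, had overlapping groups, with 8573.8, 5807.2 and 10463 in ICAM1-positive sorts and 15118.8, 10127 and 18015.2 in ICAM1-negative sorts. It was lower in ICAM1-positive cells in each litter, but passed the threshold only with the replicate block (log2 -0.80 ± 0.32, limma adjusted p = 0.110 without the block and 0.0194 with it). Its dim probe set (1450502_at) was called lower (-1.63, adjusted p = 0.00801), from 59.9, 35.2 and 31.9 in ICAM1-positive and 110, 120.4 and 149.4 in ICAM1-negative sorts. Dpysl4 lay near background and was not called (-0.44, adjusted p = 0.296). Minus that of Dpysl2, the log2 differences of Crmp1, Dpysl5 and Dpysl3 were -3.43, -2.76 and -1.06 (SDs over litters 0.30, 0.44 and 0.18, exact permutation p = 0.1 for each). In all, 14 pairs of a member with a gene of its family were compared, chosen after their values were seen, and the adjusted p of the 13 pairs at 0.1 was 0.108. Of the 6 stathmin, CRMP and doublecortin relatives, 3 were lower and 0 higher (median log2 -1.89).

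Probe sets of 1 gene gave 1 direction in each of the 5 members that had more than 1. They spread by less than 1 log2 unit for Stmn2, Stmn3, Dpysl3 and Dpysl5, and more for Dcx, whose dim probe sets showed the small differences.

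**Figure D3:**
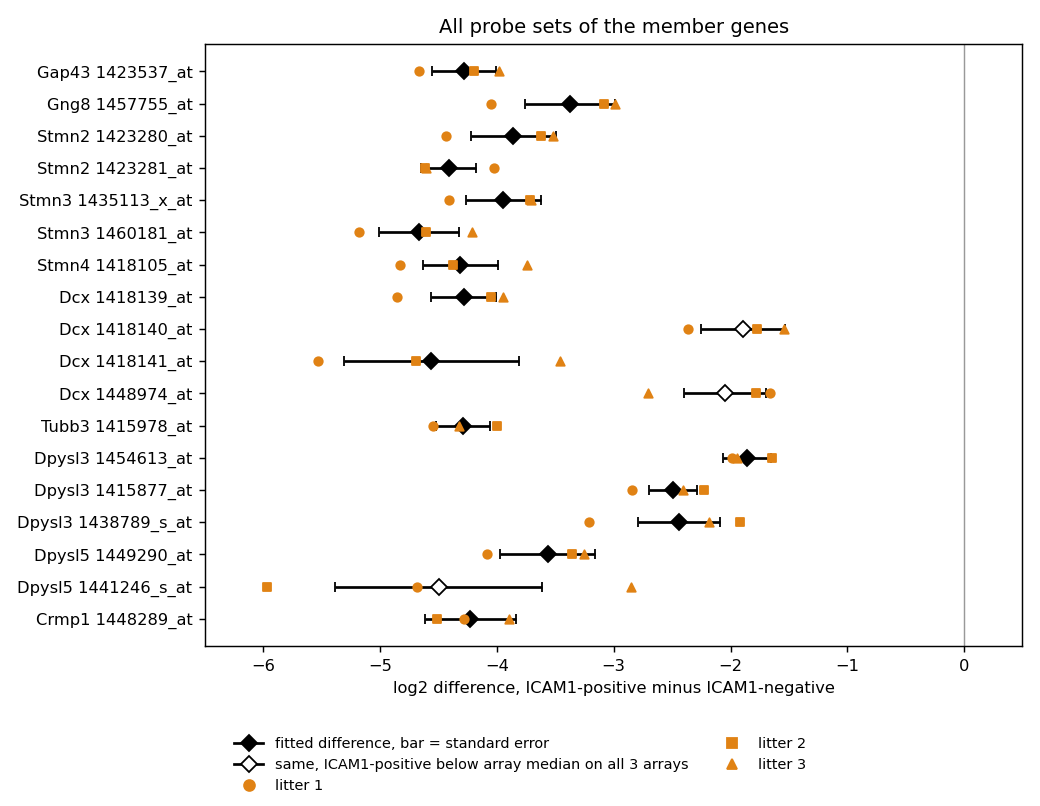
Log2 difference of all 18 member probe sets (diamonds, bars are the standard error of the fit) with the difference within each litter (orange markers). Open diamonds mark probe sets below the array median on all 3 ICAM1-positive arrays. All differences lie below 0, and the Dpysl3 probe sets sit nearest to 0 together with the dim Dcx probe sets.

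The members also shared an order of litters. Litter 3 had the highest ICAM1-positive intensity in 10 of 10 members and the highest ICAM1-negative intensity in 9, with Gap43 highest in litter 2. Of all genes, 34.7% were highest in litter 3 among ICAM1-positive arrays and 36.7% among ICAM1-negative arrays. Litter 1 had the lowest ICAM1-positive intensity in 9 members and in 33.2% of all genes. The median difference within a litter was -4.43 in litter 1, -3.86 in litter 2 and -3.72 in litter 3. Several other lists followed the same order. Among them were immature neuron regulators (medians -4.30, -3.40 and -3.34), mature olfactory neuron markers (-4.03, -3.35 and -3.26) and globose basal cell markers (-1.53, -1.35 and -1.02). Not every list did, and tubulins had medians of -0.62, -0.09 and -0.33. The median of all genes was -0.03, -0.08 and -0.05. The part of any cell type in this order was not tested.

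RefSeq (GRCm38.p6) gave promoter windows, 250 bases before to 50 after a start site, for 6 of the 10 members, 8 windows in all. They were searched on both strands for motifs of factors whose own genes are described next. CAGATG, an E-box of the kind bound by neuronal basic helix-loop-helix factors, was in 1 of 8 windows, that of Stmn3, and in 17.15% of 32851 mouse promoter windows. CCCNNGGG, the core of the Ebf site, was in 1 of 8, that of Dpysl5, and in 13.67% of all windows. CAGCTG, another E-box, was in 0 of 8 windows (16.3% of all windows), as was TTCAGCACC, a part of the element bound by REST (0.37% of all windows). The windows with a match are shown 5′ to 3′ on the strand of the gene, with the matched letters in capitals. The match lies 75 bases before the start in Stmn3 (chr2:181314451-181314750, minus strand), and matches lie 116 and 52 bases before it in Dpysl5 (chr5:30711314-30711613, plus strand). A match is a description of these letters only.
Stmn3: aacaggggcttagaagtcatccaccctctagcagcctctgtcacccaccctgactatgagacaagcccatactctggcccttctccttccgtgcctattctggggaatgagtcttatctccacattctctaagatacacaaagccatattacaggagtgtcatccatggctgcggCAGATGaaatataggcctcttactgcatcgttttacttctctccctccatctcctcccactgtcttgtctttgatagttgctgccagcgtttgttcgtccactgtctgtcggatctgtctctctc
Dpysl5: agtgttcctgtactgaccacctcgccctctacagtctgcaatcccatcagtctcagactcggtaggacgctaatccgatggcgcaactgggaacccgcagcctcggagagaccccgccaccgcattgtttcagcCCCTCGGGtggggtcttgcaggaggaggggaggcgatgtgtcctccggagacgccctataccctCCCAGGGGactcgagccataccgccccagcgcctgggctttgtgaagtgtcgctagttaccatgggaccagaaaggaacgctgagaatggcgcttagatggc

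Regulators of immature neurons followed the members. Of 19 listed, 17 were lower and 2 higher, with a median log2 difference of -3.72. Ebf1, a factor of olfactory neuron differentiation, read 160.8, 415.2 and 267.2 in ICAM1-positive and 4734.8, 7932.9 and 6207 in ICAM1-negative sorts (log2 -4.56 ± 0.40, limma adjusted p = 0.000550). Neurog1, the proneural factor of olfactory precursors, differed by -4.50 ± 0.48 (-3.41 with low values raised) and Myt1l, a neuronal zinc finger factor, by -4.46 ± 0.25 (adjusted p = 0.00107 and 0.000186). Rest, the repressor of neuronal genes in cells that are not neurons, was higher, with 1170.1, 828 and 1030.3 in ICAM1-positive and 135.4, 157.2 and 179.3 in ICAM1-negative sorts (2.68 ± 0.21, adjusted p = 0.000426). Sox4, a factor shared by many progenitors, was higher by 0.95 ± 0.16 (adjusted p = 0.00560, but 0.0750 to 0.0788 in the leave-out fits that lost it).

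Of 27 proteins that bind microtubules, 12 were lower and 3 higher (median log2 -0.57), where 20.8% of all genes were lower and 20.6% higher. Map6, a protein of cold-stable microtubules, differed by -3.94 ± 0.31 and Map7d2 by -4.05 ± 0.25 (limma adjusted p = 0.000416 and 0.000225). Map7d2 was below the median on all ICAM1-positive arrays and differed by -3.43 with low values raised, at least 10.8-fold lower. Map1b, the main microtubule-associated protein of growing axons, read 686.5, 706 and 967.2 in ICAM1-positive and 7633.5, 6689.6 and 9084.1 in ICAM1-negative sorts (-3.32 ± 0.22, adjusted p = 0.000279). Camsap2, which caps minus ends, was higher, with 2526.4, 2621.8 and 2475.3 in ICAM1-positive and 1097.4, 1044.3 and 1009.9 in ICAM1-negative sorts (1.27 ± 0.15, adjusted p = 0.00167). Dst, a cytoskeletal linker also known from hemidesmosomes, was higher by 1.46 ± 0.35 (adjusted p = 0.0215) on its brightest probe set and by up to 8.76 over 4 probe sets, all called higher. Map4 was higher by 0.86 ± 0.16 (adjusted p = 0.00851). Another Map4 probe set was lower, but was dim in ICAM1-positive sorts (20.1, 17.3 and 48.4). Without litter 1 the list held 8 lower and 1 higher, as it did without litter 3.

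Axonal motors were mostly lower. Of 19 tested, 12 were lower and 2 higher (median log2 -1.05), and 7 were lower under each of the 16 alternatives run per probe set. Kif5a, a neuronal kinesin heavy chain, read 299.8, 614.7 and 586.5 in ICAM1-positive and 3609, 4513.5 and 5222.4 in ICAM1-negative sorts (-3.21 ± 0.34, limma adjusted p = 0.00102). Klc1, a kinesin light chain, read 1068.6, 1255.5 and 1675.2 in ICAM1-positive and 10649.3, 10498.7 and 12830.9 in ICAM1-negative sorts (-3.11 ± 0.23, adjusted p = 0.000343). The 2 higher genes were Kif26a (3.68 ± 0.70) and Kif26b (1.36 ± 0.23), with adjusted p of 0.00957 and 0.00615, and both calls were lost in leave-out fits. Kif26a was below the median on all ICAM1-negative arrays, and with low values raised its difference was 0.97 and its call was lost (adjusted p = 0.0943). Without litter 1 the counts were 7 lower and 0 higher.

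Of 17 genes for severing, folding or modifying tubulin, 6 were lower and 2 higher (median log2 -0.52). Ttll7, which adds glutamate to beta-tubulin, read 527, 1014 and 1055.5 in ICAM1-positive and 10125.7, 10963.5 and 9546 in ICAM1-negative sorts (-3.63 ± 0.31, limma adjusted p = 0.000514). Ttll1, a tubulin glutamylase of the same family, differed by -1.78 ± 0.18 (adjusted p = 0.000855). Fign, a severing enzyme, was called higher (2.36 ± 0.24), but its call was lost with low values raised (adjusted p = 0.397). Svbp was higher by 0.75 ± 0.20 (adjusted p = 0.0303, and 0.0531 to 0.153 in the leave-out fits that lost it). Without litter 1 or litter 3 the counts were 2 lower and 1 higher.

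Of 26 membrane and actin proteins of the growth cone tested, 8 were lower, 7 higher and 11 not called. Over all genes, 20.8% were lower and 20.6% higher. The list's median log2 difference was 0.29. Dbn1, which encodes drebrin, an actin-binding protein of growth cones, read 170.7, 162.2 and 170.1 in ICAM1-positive and 1240.1, 782.3 and 1290.5 in ICAM1-negative sorts (-2.68 ± 0.24, limma adjusted p = 0.000615). Plppr3 was lower by the fit (log2 -4.62 ± 0.73, adjusted p = 0.00475), but was below the median on all ICAM1-positive arrays. Its difference was -2.48 with low values raised, and its adjusted p was 0.0640 without litter 1. Its relative Plppr4 was higher, with 588.4, 651.2 and 728.3 in ICAM1-positive and 90, 78.4 and 82.5 in ICAM1-negative sorts (2.97 ± 0.17, adjusted p = 0.000196). Gpm6b, a membrane proteolipid, read 11143.6, 12434.8 and 11245.9 in ICAM1-positive and 4703.3, 4464.7 and 4284.1 in ICAM1-negative sorts (1.37 ± 0.16, adjusted p = 0.00144). Basp1, which like Gap43 is a calmodulin-binding protein of growth cone membranes, was higher by 0.94 ± 0.22 (adjusted p = 0.0211). That call was lost with quantile normalization (0.0502) and in leave-out fits (0.0556 to 0.143). Gpm6a, Cfl2, Ablim1 and Cttn were higher by 0.60 to 1.27, each call lost in some leave-out fits, and a dim Ablim1 probe set was lower. Without litter 1 the list held 3 lower and 2 higher, without litter 3 it held 5 lower and 2 higher, and with the replicate block 10 were higher.

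Adhesion and signalling partners of the growth cone were mostly lower, with 17 lower and 6 higher of 28 tested (median log2 -1.58). Ncam1, a neural adhesion molecule, read 590.4, 1479.8 and 1418.8 in ICAM1-positive and 11714.7, 12474.1 and 14055 in ICAM1-negative sorts (-3.56 ± 0.39, limma adjusted p = 0.00117). It is named here after its values were seen. Mapk10, the neuronal JNK kinase, differed by -4.33 ± 0.39 (adjusted p = 0.000585). Nrcam, an adhesion molecule of the L1 family, went strongly the other way, with 13299.2, 14851.1 and 12424.6 in ICAM1-positive and 169.7, 219.1 and 214.6 in ICAM1-negative sorts (6.08 ± 0.19, adjusted p = 0.000124). Gnai1, an inhibitory G protein alpha subunit, read 9470, 11392.4 and 9333.5 in ICAM1-positive and 211.1, 260.8 and 263.7 in ICAM1-negative sorts (5.36 ± 0.19, adjusted p = 0.000124). Gnai2, Rac1 and Prkca were higher by 1.81, 1.55 and 0.70 (adjusted p = 0.00502, 0.00398 and 0.0397), and each of these calls was lost in some leave-out fits.

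Markers of other cell types show what else differed between the sorts. Mature olfactory neuron markers were lower in 9 of 10 tested (median log2 -3.50), with a summed intensity of 6281 to 12179 in ICAM1-positive and 92872 to 106362 in ICAM1-negative sorts. Globose basal cell markers were lower in 5 of 8 (median -1.32) and ciliated cell markers in 5 of 5 (median -3.12). Neurog1 counts both as a globose basal cell marker and as an immature neuron regulator. Gng13 likewise counts both as a growth cone partner and as a mature neuron marker. Horizontal basal cell markers, Icam1 among them, were higher in 9 of 9 (median 7.96, and 6.61 with low values raised), at 96045 to 101016 in ICAM1-positive and 332 to 895 in ICAM1-negative sorts, where 5 of the 9 lay below the median on all arrays. Macrophage markers were higher in 9 of 9 (median 4.10, and 2.81 with low values raised), at 16807 to 21767 in ICAM1-positive and 917 to 1144 in ICAM1-negative sorts, where again 5 of the 9 lay below the median throughout.

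Sustentacular cell markers were higher in 2 of 6 (Ermn and Krt18) and lower in none, where 20.6% of all genes were higher. Their median log2 difference was -0.29, and Sult1c1, Muc2, Cyp2g1 and Sec14l3 were not called, at -0.84 to -0.28. Microvillar cell markers were lower in 5 of 7 (2 with the replicate block). For endothelial markers, 0 of 5 passed the threshold in limma (0 at an unadjusted p under 0.05). All 5 lay below the median on every ICAM1-positive array and 4 on every ICAM1-negative array, too dim to compare. Ensheathing glia also express growth-associated genes in the olfactory nerve. Of 6 glial markers tested 1 was lower (Frzb, lost with low values raised) and 1 higher (Ngfr, log2 3.51 ± 0.60, 2.18 with low values raised, limma adjusted p of 0.0649 without litter 3). They summed to 463 to 933 in ICAM1-positive and 389 to 467 in ICAM1-negative sorts, and 4 of 6 were below the median on all ICAM1-positive arrays and 3 on all ICAM1-negative arrays. The part of these cell types in the members' differences was not tested.

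**Figure D4:**
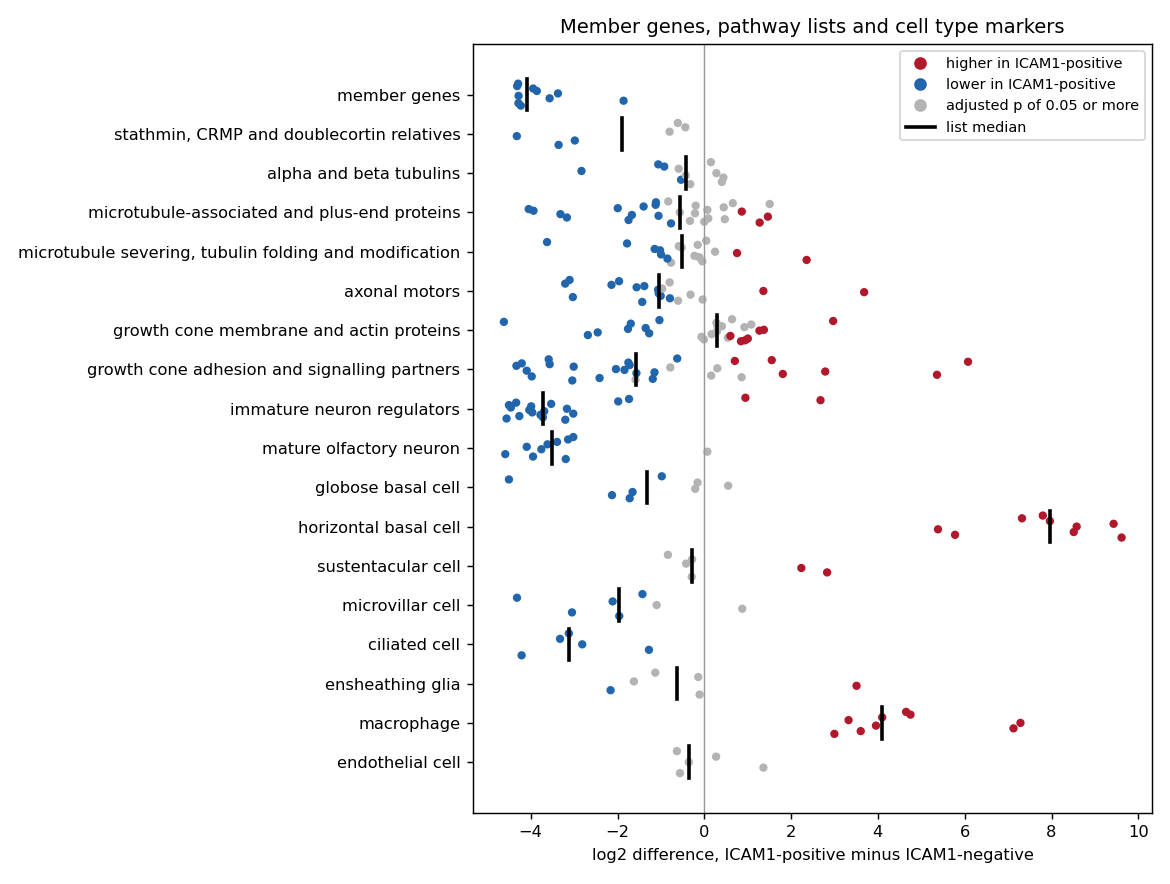
Log2 difference (ICAM1-positive minus ICAM1-negative) of each tested gene in the member list, the pathway lists and the cell type marker lists, red where higher, blue where lower and grey where the adjusted p was 0.05 or more. Black bars are list medians, at -4.09 for the members, -0.43 for tubulins, 0.29 for growth cone membrane and actin proteins and -3.50 for mature olfactory neuron markers.

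The 5 other genes whose profile over the 6 arrays lay nearest to the mean member profile were Fam13c, Pcolce2, Septin8, Kalrn and Add2. Likeness was the Euclidean distance between log2 profiles centred on their own mean, and it ran from 0.185 for Fam13c to 0.281 for Add2. The members themselves lay at 0.429 (Stmn3) to 2.42 (Dpysl3). Fam13c read 203, 245.7 and 346.1 in ICAM1-positive and 3902.8, 3118.3 and 4029.2 in ICAM1-negative sorts. Litter 3 was its highest array in both sorts, as in 9 members and in 17.3% of all genes. Because Fam13c was picked for a profile like that of the members, this shared order is no separate result. Kalrn, which encodes kalirin, a protein known from axons and dendritic spines, read 171.1, 216.4 and 310 in ICAM1-positive and 3766.2, 2817.2 and 3506.8 in ICAM1-negative sorts. Add2, an adducin of the membrane skeleton, read 297.6, 427.4 and 610.9 in ICAM1-positive and 6405.6, 6015.4 and 8221 in ICAM1-negative sorts.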

How the data were processed

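Gene expression was measured on 6 Affymetrix mouse arrays, 1 for each sort of 3 litters. TRIzol extraction and 2 rounds of RNA amplification are recorded in the labels' protocols. The values the authors deposited are linear intensities. GCRMA is named by the submitters' processing notes and the series text, but the deposited intensities have a mean of about 500 on every array after trimming 2% from each end, the form of MAS5-type signals. For background correction and detection calls, the program is not given in the sources used here. Low signals can shift with the background correction, and the amplification can compress or distort differences.

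Groups came from titles and population labels. Intensities were put on the log2 scale. Control probe sets (64) were dropped, and probe sets above log2 4 (intensity above 16) on at least 3 of 6 arrays were kept. Platform symbols were single for 34945 probe sets, several for 932 and none for 9160. A gene was represented by its kept single-symbol probe set with the highest mean. Each difference was fitted in R 4.3.3 by limma 3.58.1 (lmFit, then eBayes, no block), with Benjamini-Hochberg adjustment over all 38694 probe sets and a threshold of 0.05. The replicates are separate litters, and only 3 arrays a group limit the precision.

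Replicate numbers pair the sorts, because the labels say each number is 1 litter; deviations of same-numbered arrays correlated at 0.127, 0.199 and 0.0812. Alternatives were the replicate block, no or a stricter filter, quantile normalization, low intensities raised to the array median, a pseudocount of 50, an eBayes trend, leaving out litters or arrays, and the mean of a gene's probe sets. Only the limma fit without a block was tested on simulated data, and the lists, the pairing and the permutation test were not. The member genes, lists and naming rule were chosen with earlier results of these data known. The rule names the members, the 3 called genes of largest difference in each list, called genes against a list's majority, the relatives, and the 5 nearest genes. Lists were described by counts and medians. Genome coordinates are given only for RefSeq promoter windows.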

Additional observations from a re-analysis of the deposited data

How the results depend on the processing

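All 10 member genes stayed lower and past the threshold under each of the 17 alternatives, 170 of 170 values, with a member median between -4.29 and -3.84 and a largest adjusted p of 0.0317 (limma, without litter 1). The replicate block left all 18 member probe sets and all 10 member genes lower and gave 14375 called probe sets in the whole table, against 13512 without it. Member probe sets called numbered 15 with low intensities raised, 16 without litter 1 or litter 2, and 17 without litter 3 or with the stricter filter, which kept 17. Leaving out a litter or an array gave 7442 to 11681 called probe sets in the whole table, the lowest being without litter 1 and 7690 without litter 3. Fewer arrays enter these fits. The list counts changed more than the members. Of 594 counts under alternatives, 60 moved by more than 1.5 times or changed to or from 0. The 594 also held the counts of member probe sets called higher. Values near background limit the folds of Gng8, Dpysl5 and the dim Dcx probe sets.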
